A study of Mus musculus with 6 samples.

Results

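The genes described here encode the G protein and cyclic AMP (cAMP) machinery that carries a signal from a G protein-coupled receptor into the cell. They were measured in preadipocytes that bind FcsFNDC4 strongly (HBC, high-binding cells) or weakly (LBC, low-binding cells). FcsFNDC4 is a recombinant fusion of human IgG Fc with the extracellular part of the hepatokine FNDC4. Members were chosen by a rule on gene symbols that uses no measured value, although earlier results of these data were known when it was set. The rule takes the adenylyl cyclases (Adcy), G alpha, beta and gamma subunits (Gna, Gnb, Gng), phosphodiesterases (Pde), subunits of protein kinase A (Prkac, Prkar), regulators of G protein signalling (Rgs), G protein-coupled receptor kinases (Grk) and beta arrestins (Arrb). It found 99 of the 19938 genes that had a transcript cluster of their own, a transcript cluster being a group of probes read together. HBC and LBC both derive from immortalized stromal vascular cells of inguinal white fat of male 129SVE mice. Each is 1 population, sorted on FcsFNDC4 binding at every round and taken at passage 20, and the labels name no treatment before lysis. Each gave 3 technical replicates with 1 Affymetrix array apiece, so every p-value below measures the spread between arrays and not between independent sorts. Titles, descriptions and phenotypes agreed on these groups, whereas the source name gives HBC for LBC replicates 2 and 3.

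A ligand-bound receptor loads its G alpha subunit with GTP and frees the beta-gamma pair. Stimulatory alpha subunits switch on the adenylyl cyclases, which make cAMP, inhibitory ones restrain them, and other classes act on other effectors such as phospholipase C. Phosphodiesterases break cAMP or cGMP down, protein kinase A (PKA) responds to cAMP, RGS proteins speed the hydrolysis of GTP on G alpha, and GRKs with arrestins silence the receptor. In fat cells this pathway is best known for driving lipolysis, which insulin restrains through the phosphodiesterase Pde3b.

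The preadipocyte identity of both populations was checked first. Of 10 preadipocyte or fibroblast markers measured, Pdgfra averaged 4096 in HBC and 3166 in LBC, and Col1a1 averaged 4690.3 in HBC and 3685 in LBC (linear intensity units). Dpp4 and Lum were in the dim range in both groups. Of these 10 markers 5 passed on p. Pdgfrb (log2 ratio 0.53), Pdgfra (0.37) and Col1a1 (0.35) had higher values in HBC, Cd34 had lower ones (-0.45), and Dcn alone was called (-0.78, lower in HBC). The list summed to 19366 to 22091 on HBC arrays and to 18093 to 20868 on LBC arrays. The 7 adipocyte markers summed to 6254 to 6375 on HBC arrays and to 3691 to 4419 on LBC arrays, and Lpl, lipoprotein lipase, was called higher in HBC (1.84). Fabp4 (0.42) and Pparg (0.33) passed on p but not on fold, also with every HBC array higher. With Lpl, 3 of the 7 passed on p (42.9%), against 18.3% of all genes. What part these differences have in the results below was not tested. The adipocyte genes Adipoq, Lep and Cidec stayed within the range of olfactory receptor genes, a group taken as a reference for dim signal. That range, the 10th to 90th percentile over 1027 genes, was 13.8 to 83.7. Plin1, from the same adipocyte list, averaged 136.2 in HBC and 136.6 in LBC, above that range, and did not pass on p. The 12 macrophage markers summed to 981 to 1029 on HBC arrays and to 1069 to 1146 on LBC arrays, and none of them was called. The 7 endothelial markers summed to 399.5 to 462 on HBC arrays and to 409.5 to 498 on LBC arrays, and none was called. LBC replicate 3 stood apart in brightness: over the 5628 genes with a mean above 500, its median deviation from the LBC mean was 0.16 on the log2 scale, against -0.11 and -0.05 for LBC replicates 1 and 2. In HBC these deviations were 0.01, 0.05 and -0.06. In such bulk samples, fewer cells of a type and less RNA per cell cannot be told apart.

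HBC and LBC differed in a minority of the machinery. The 10 genes called were 1 cyclase, 3 phosphodiesterases, 5 RGS genes and 1 GRK, with no G protein or PKA subunit among them. Calls required a fold of more than 1.5 together with an adjusted p below 0.05 in limma, fitted to log2(intensity + 16) of all genes. Differences are given as log2 ratios, the HBC mean of these log2 values minus the LBC mean, marked as log2 fold change on the plot axes. In HBC, 7 of the 99 genes were called higher (7.07%), against 2.54% of all genes tested. Another 3 were called lower (3.03%), against 1.13% of all genes. In either direction this made 10.1% of the members and 3.67% of all genes. Adcy3, Pde2a, Grk5, Rgs2, Rgs3, Rgs4 and Rgs17 made up the higher genes, and Pde3b, Pde4b and Rgs16 the lower ones. By the p-value alone, 23 members passed (23.2%), against 18.3% of all genes. All 3 HBC arrays lay above all 3 LBC arrays for 12 members, where 10.1% of all genes did so. They lay below for 21 members, where 25.1% of all genes did so. The median log2 ratio was -0.08 over the members and -0.07 over all genes, and a total of 26 members were in the dim range in both groups. With 3 arrays a group, an exact permutation test of a single gene cannot go below p = 0.1. The calls were made in limma, which shares variance between genes (24.9 prior degrees of freedom against 4 residual ones). Under the per-gene test that the methods name, which shares no variance, 6 members were called higher and 3 lower. Rgs2 was the one lost.

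**Figure D1:**
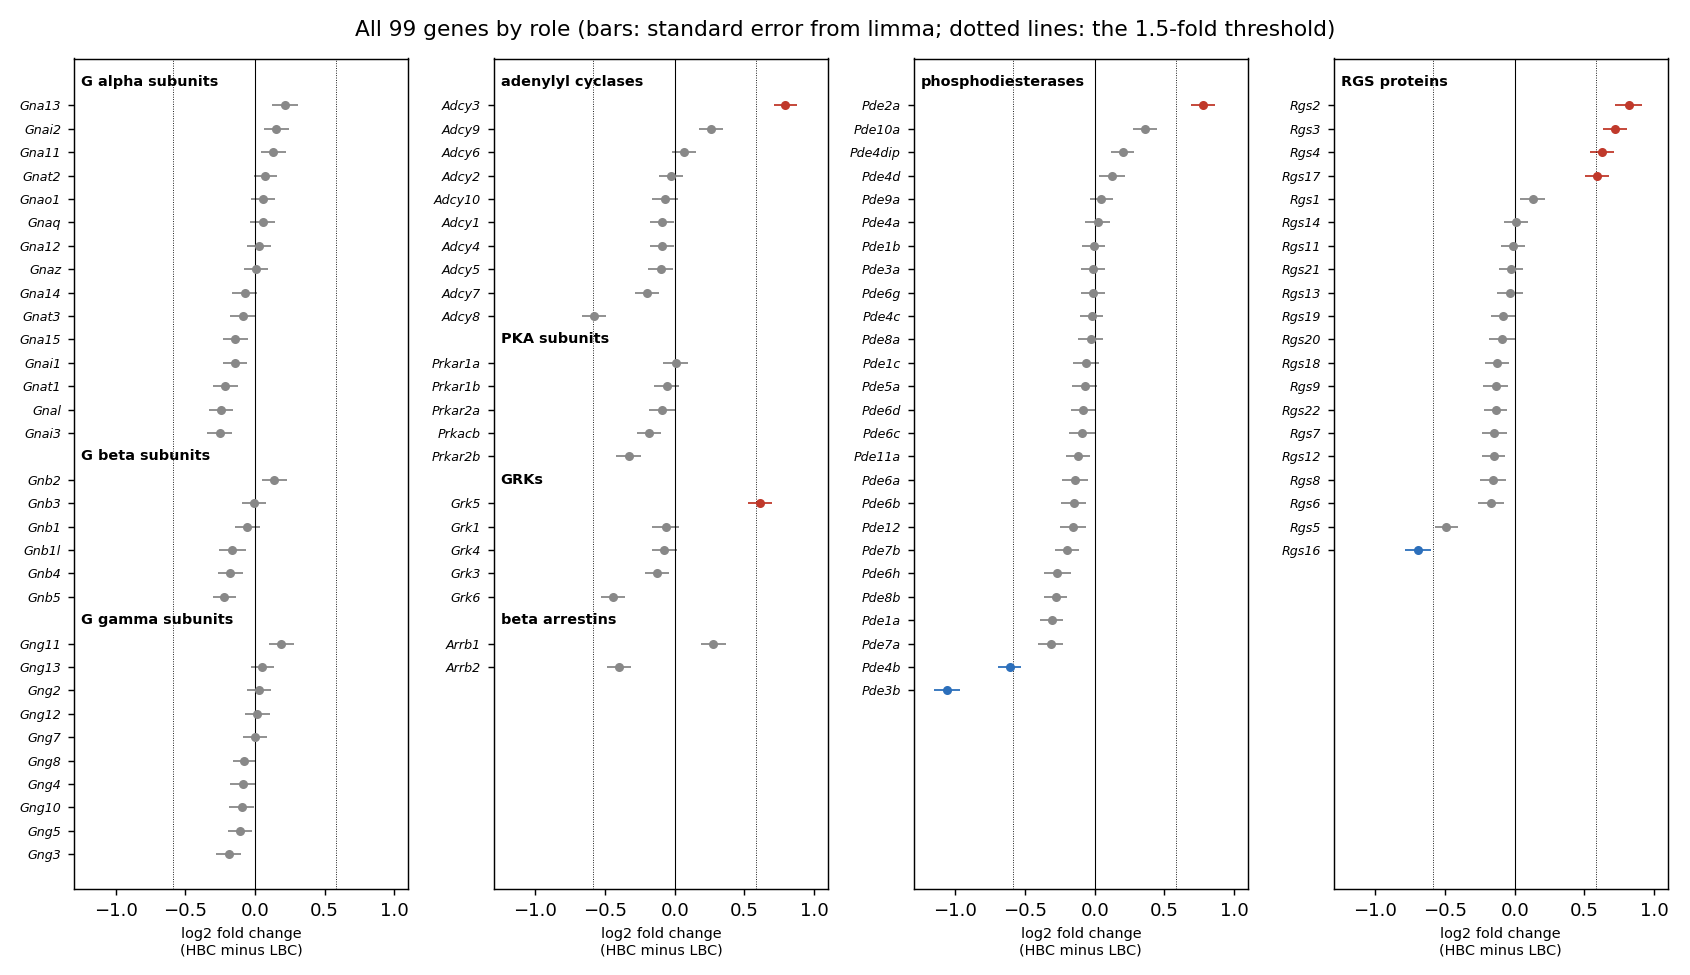
Log2 ratios of all 99 genes, arranged by role, bars marking limma standard errors (n = 3 arrays per group); red genes were called higher in HBC, blue ones lower and grey ones not called. The G protein and PKA subunits lie between -0.33 and 0.22, while single cyclases, phosphodiesterases, RGS proteins and GRKs lie outside the dotted 1.5-fold lines.

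No G protein subunit was called. The 15 G alpha genes had log2 ratios between -0.25 and 0.22, the 6 G beta genes between -0.22 and 0.14, and the 10 G gamma genes between -0.19 and 0.19. Gnai2, an inhibitory alpha subunit, read 3637, 3718 and 3332 in HBC, against 2960.4, 3136 and 3530.2 in LBC. The groups overlapped, since LBC replicate 3 read above HBC replicate 3 (log2 ratio 0.15, 95% interval -0.03 to 0.33). After cyclic loess scaling it passed on p (0.16, limma adjusted p = 0.014). Gnai3, another inhibitory alpha subunit, read 1828, 1869 and 1779 in HBC, against 2020.5, 2113 and 2422 in LBC. Here every HBC array lay below every LBC array, and the gene passed on p but not on fold (log2 ratio -0.25, standard error 0.088, adjusted p = 0.042). Gnal, an alpha subunit best known from olfactory neurons, was dim throughout, with 38.4 ± 3.27 in HBC and 48.4 ± 2.53 in LBC (SD, n = 3 arrays).

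Gna13 had the highest of the alpha values (0.22, 95% interval 0.02 to 0.41), with LBC replicate 3 among the HBC arrays. Gnb1, a beta subunit, averaged 4917 ± 303 in HBC and 5112 ± 495 in LBC (SD, n = 3), a log2 ratio of -0.05. The largest departure among beta subunits was that of Gnb5, the partner of a subset of RGS proteins, at 395, 391 and 389 in HBC, against 447, 443 and 488 in LBC. Its HBC arrays all lay below its LBC arrays, but it did not pass the test (log2 ratio -0.22, limma adjusted p = 0.069). Among gamma subunits, Gng12 read 3369, 3366 and 3202 in HBC, against 3018, 3104 and 3736 in LBC, which overlapped. Gng11 averaged 160.1 ± 6.78 in HBC and 139 ± 11.98 in LBC (SD, n = 3). Gng11 had the largest value of its class, 0.19, which was not called either.

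Of the 10 adenylyl cyclases, 1 was called higher in HBC (10.0%) and none lower, against 2.54% and 1.13% of all genes. Adcy3, a cyclase sensitive to calcium and calmodulin that is expressed in fat as well as in olfactory cilia, read 511, 531 and 495 in HBC, against 279, 289 and 299 in LBC. The 3 HBC arrays were well clear of the 3 LBC arrays. The ratio of means was 1.77 and the log2 ratio 0.79 (standard error 0.084, limma adjusted p = 1.3e-08). Adcy8, a calcium-stimulated cyclase known mainly from brain, went the other way. It read 241, 242 and 238 in HBC, against 335, 374 and 395 in LBC. Its groups did not overlap and it passed on p (limma adjusted p = 6.5e-06), yet its log2 ratio of -0.58 was just short of 1.5-fold. Without LBC replicate 1 it was -0.64 and called lower.

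The other cyclases differed less. Adcy9, a widely expressed cyclase, read 126, 124 and 128 in HBC, against 108, 105 and 94.9 in LBC, passing on p but not on fold (log2 ratio 0.26, limma adjusted p = 0.031). Adcy7, a cyclase that beta-gamma subunits stimulate, averaged 313 ± 8.52 in HBC and 363 ± 21.5 in LBC (SD, n = 3). Its HBC arrays were all lower, with an adjusted p of 0.10. Adcy6, a cyclase that calcium inhibits, averaged 744 ± 24.1 in HBC and 711 ± 44.8 in LBC, with overlapping arrays and a 95% interval of -0.11 to 0.24. Adcy1, Adcy2, Adcy4, Adcy5 and the bicarbonate-sensitive Adcy10 overlapped between the groups, with log2 ratios from -0.10 to -0.03, and Adcy10 was in the dim range throughout.

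**Figure D2:**
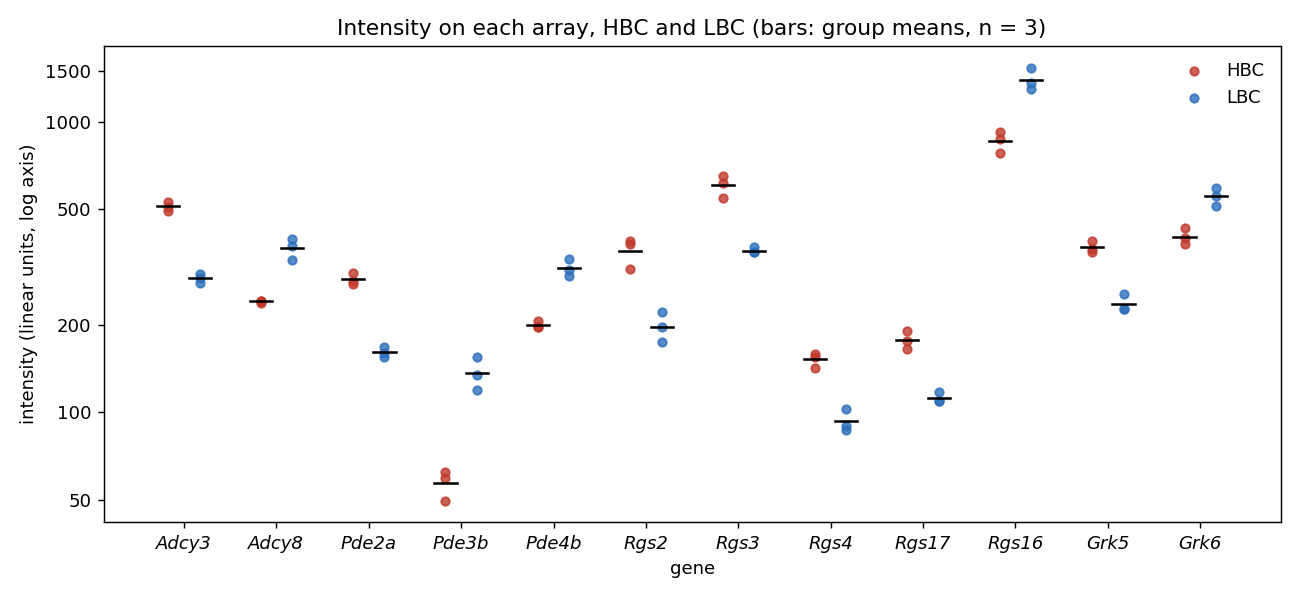
Per-array intensities, drawn on a log axis, of the 10 genes called and of Adcy8 and Grk6, with 3 HBC arrays in red, 3 LBC arrays in blue and black bars at the group means. For each of the 12 genes, the HBC and LBC arrays do not overlap.

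Among 26 genes with a Pde symbol, 1 was called higher in HBC (3.85%) and 2 lower (7.69%), against 2.54% and 1.13% of all genes. Not all of the 26 are cAMP phosphodiesterases, Pde12 and the scaffold Pde4dip being among the exceptions. Pde2a, an enzyme that cGMP stimulates to break down cAMP, read 302, 275 and 283 in HBC, against 155, 159.8 and 167 in LBC. All HBC arrays were higher, with a ratio of means of 1.79 and a log2 ratio of 0.78 (standard error 0.084, limma adjusted p = 2.1e-08). Pde3b, the enzyme through which insulin restrains lipolysis, had the largest change of any member. It read 62.1, 59.5 and 49.6 in HBC, against 119.7, 134 and 155 in LBC. All HBC arrays were lower, and the HBC mean of 57.1 was within the dim range while the LBC mean of 136 was above it, so the size of the fall is uncertain (ratio 0.418, log2 ratio -1.06, standard error 0.095, limma adjusted p = 3.6e-10). Over the settings tried its log2 ratio ran from -1.24 with an added 1 to -0.80 with an added 50. Pde4b, a cAMP-specific enzyme, read 197, 197 and 206 in HBC, against 295, 309.7 and 337 in LBC. Every HBC array was lower, with a log2 ratio of -0.61 (limma adjusted p = 2.2e-06). It was no longer called without LBC replicate 3 (-0.56) or with quantile normalization (-0.58), cyclic loess (-0.53), median centring (-0.57) or an added 50 (-0.54).

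Another 4 phosphodiesterases passed on p but not on fold. Pde10a, which acts on cAMP and cGMP, averaged 589.9 ± 3.76 in HBC and 457 ± 40.4 in LBC (log2 ratio 0.36). The calcium-dependent Pde1a averaged 230.3 ± 2.61 in HBC and 289 ± 11.1 in LBC (-0.31). The cAMP-specific Pde7a averaged 447 ± 21.4 in HBC and 562 ± 59.8 in LBC (-0.32), and Pde8b, also cAMP-specific, 91.8 ± 4.32 in HBC and 115 ± 3.19 in LBC (-0.28; SD, n = 3 arrays throughout). Of the 7 that passed on p, 5 had lower values in HBC, as did 2274 of the 3655 genes that passed on p in the whole table. Pde6d, which carries lipid-modified proteins, averaged 2721 in HBC and 2892 in LBC and was not called. The 3 clusters of Pde4d gave log2 ratios of 0.12, 0.13 and 0.04, each with overlapping arrays.

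The RGS family held 5 of the 10 calls, 4 higher in HBC and 1 lower, out of 20 genes. These shares of 20.0% higher and 5.0% lower compare with 2.54% and 1.13% of all genes. Rgs2, which prefers Gq-type alpha subunits and can also restrain adenylyl cyclase, read 379, 389 and 311 in HBC, against 196, 174 and 221 in LBC. HBC replicate 3 was the lowest of its group but lay above every LBC array. The ratio of means was 1.83 and the log2 ratio 0.82 (standard error 0.096, limma adjusted p = 1.1e-07); by the methods' t-test the adjusted p was 0.051. Rgs4, which accelerates GTP hydrolysis on inhibitory and Gq-type subunits, read 155, 141 and 159 in HBC, against 86.5, 89.4 and 103 in LBC (log2 ratio 0.63, limma adjusted p = 2.5e-06). Rgs17 read 190.4, 165 and 175 in HBC, against 109, 109.7 and 117 in LBC (log2 ratio 0.59, limma adjusted p = 4.6e-06). For both, all HBC arrays were higher. Without LBC replicate 1 neither was called, at 0.58 for Rgs4 and 0.57 for Rgs17, and Rgs17 also lost its call without HBC replicate 1 (0.54) or LBC replicate 2 (0.57). With an added 50 neither was called, at 0.50 for Rgs4 and 0.48 for Rgs17.

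Rgs3 is covered by 2 transcript clusters that did not agree. The brighter one, which stands for the gene here, read 618, 652 and 545 in HBC, against 356, 355 and 369 in LBC (log2 ratio 0.72, limma adjusted p = 1.8e-07). The other read 149, 142 and 145 in HBC, against 151, 135 and 139 in LBC, a log2 ratio of 0.04 (limma adjusted p = 0.81, fitted to every cluster). The annotation lists different sets of Rgs3 transcripts for them, with some in common. The mean of both clusters was 0.38 and not called, and no test was made of which one measures Rgs3 better.

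Rgs16 was the RGS gene called lower. It read 873, 921 and 783 in HBC, against 1296, 1364 and 1538 in LBC, a ratio of means of 0.614 and a log2 ratio of -0.69 (standard error 0.090, limma adjusted p = 6.8e-07). All HBC arrays lay below all LBC arrays. Rgs5, a gene common in pericytes, passed on p but not on fold, at 64.1, 67.2 and 72.3 in HBC, against 97.0, 102 and 106 in LBC (log2 ratio -0.49, limma adjusted p = 6.3e-05). Its HBC mean was in the dim range. Rgs19, which acts on inhibitory subunits, averaged 1227 ± 27.9 in HBC and 1306 ± 118 in LBC (SD, n = 3) and was not called (-0.09). With it, the remaining 14 RGS genes had log2 ratios between -0.17 and 0.13 and none passed on p, and 9 of the 20 were dim in both groups. Rgs2, Rgs4, Rgs5 and Rgs16 all belong to the same subfamily of small RGS proteins, and they did not share a direction.

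The start-site sequences were searched for the cAMP response element (CRE), the motif bound by CREB, a transcription factor that PKA phosphorylates. RefSeq promoters of GRCm38.p6, each with 250 bases before and 50 after a start site, were at hand for 74 of the 99 genes. The full palindrome TGACGTCA was in 2 of their 123 promoters (1.63%), which belong to neighbouring start sites of Prkar1a, against 1.79% of all 32851 promoters. The shorter core TGACG, read on either strand (CGTCA on the other), was in 27 of the 123, belonging to 25 genes, against 20.8% of all promoters. Each full palindrome also counts as the shorter core. The 9 called genes with a promoter had 18 between them, of which 4 held the core, 1 each of Pde2a, Pde4b, Rgs2 and Rgs4. The promoters of Rgs2, Rgs4 and Pde4b are shown because these genes were called in different directions, with the core in capitals, and that of Prkar1a because it held the palindrome, which is in capitals. For Pde4b this is 1 of 4 promoters, the others lacking the core, and for Prkar1a 1 of 6. The first bases lie 185 and 67 before the Rgs2 start, 236 and 141 before that of Rgs4, 34 before that of Pde4b and 49 before that of Prkar1a. The palindrome in the other Prkar1a promoter lies 38 bases after its start. A match in letters is a description and not a binding site.
Rgs2, chr1:144004100-144004399, strand -: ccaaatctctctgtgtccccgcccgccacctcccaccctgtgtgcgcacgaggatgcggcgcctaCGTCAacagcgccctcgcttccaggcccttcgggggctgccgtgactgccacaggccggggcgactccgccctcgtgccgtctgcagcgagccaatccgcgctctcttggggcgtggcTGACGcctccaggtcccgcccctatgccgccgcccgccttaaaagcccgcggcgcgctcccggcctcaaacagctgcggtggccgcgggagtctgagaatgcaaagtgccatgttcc
Rgs4, chr1:169747593-169747892, strand -: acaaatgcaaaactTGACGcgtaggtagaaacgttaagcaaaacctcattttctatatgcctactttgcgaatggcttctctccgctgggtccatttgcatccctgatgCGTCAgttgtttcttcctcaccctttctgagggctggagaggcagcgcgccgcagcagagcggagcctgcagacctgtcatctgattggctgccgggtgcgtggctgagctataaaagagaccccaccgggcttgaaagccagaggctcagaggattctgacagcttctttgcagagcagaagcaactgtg
Pde4b, chr4:102421305-102421604, strand +: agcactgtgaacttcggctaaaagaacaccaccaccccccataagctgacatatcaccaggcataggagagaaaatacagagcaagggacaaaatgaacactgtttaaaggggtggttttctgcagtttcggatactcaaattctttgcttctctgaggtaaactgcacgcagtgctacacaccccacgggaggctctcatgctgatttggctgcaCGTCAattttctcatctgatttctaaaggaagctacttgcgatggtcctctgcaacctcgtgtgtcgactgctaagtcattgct
Prkar1a, chr11:109650699-109650998, strand +: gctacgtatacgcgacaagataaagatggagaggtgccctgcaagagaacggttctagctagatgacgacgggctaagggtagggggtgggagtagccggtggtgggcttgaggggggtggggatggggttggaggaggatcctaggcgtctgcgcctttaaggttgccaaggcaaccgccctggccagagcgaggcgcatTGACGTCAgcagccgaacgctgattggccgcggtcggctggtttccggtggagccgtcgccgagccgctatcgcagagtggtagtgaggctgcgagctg

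None of the 5 PKA subunits was called, and 1 of them passed on p. The catalytic subunit Prkacb read 1135, 1182 and 1151 in HBC, against 1243, 1294 and 1427 in LBC. All HBC arrays were lower, but the test was not passed (log2 ratio -0.19, 95% interval -0.36 to -0.01, limma adjusted p = 0.13). Prkar2b, the type II regulatory subunit typical of fat and brain, read 1242, 1305 and 1108 in HBC, against 1438, 1485 and 1687 in LBC. It passed on p but not on fold, with all HBC arrays lower (log2 ratio -0.33, standard error 0.090, limma adjusted p = 0.0086). Prkar1a averaged 2758 ± 119 in HBC and 2752 ± 219.6 in LBC, Prkar2a 872 ± 70.0 in HBC and 935 ± 114 in LBC, and Prkar1b 147 ± 16.5 in HBC and 153 ± 4.65 in LBC (SD, n = 3). These 3 had overlapping arrays and log2 ratios of 0.01, -0.10 and -0.06. Prkaca and the stimulatory subunit Gnas had only transcript clusters shared with another gene, and fall outside the rule. The cluster shared by Prkaca and Samd1 averaged 755 in HBC and 810.5 in LBC, and that shared by Gnas and Gnasas1 averaged 2813 in HBC and 2752 in LBC, each with overlapping arrays.

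Among 5 GRK genes, 1 was called higher in HBC (20.0%) and none lower, against 2.54% and 1.13% of all genes. Grk5, a membrane-associated receptor kinase, read 356, 388 and 366 in HBC, against 227, 227 and 256 in LBC. All HBC arrays were higher (ratio 1.56, log2 ratio 0.61, limma adjusted p = 2.5e-06), although the call was lost without LBC replicate 1 (0.58) or HBC replicate 2 (0.58) and with an added 50 (0.55). Its close relative Grk6 read 399, 429.7 and 379.8 in HBC, against 515, 554 and 591 in LBC. All HBC arrays were lower, and it passed on p but not on fold (log2 ratio -0.44, limma adjusted p = 0.00034). Grk1, Grk3 and Grk4 were not called, at -0.07, -0.13 and -0.08, and their means were below 83.7, the dim limit, in both groups.

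The beta arrestins, which bind receptors that GRKs have phosphorylated, had log2 ratios of opposite sign. Arrb1 read 456, 429.8 and 452 in HBC, against 328, 351 and 422 in LBC, a log2 ratio of 0.28 (limma adjusted p = 0.032). Arrb2 read 221, 214 and 199 in HBC, against 274, 272 and 307 in LBC, a log2 ratio of -0.40 (limma adjusted p = 0.00093). The arrays of HBC and LBC did not overlap for either, and neither passed the fold threshold. For Arrb1, LBC replicate 3 was close to the HBC arrays.

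Calls near the fold threshold moved with single arrays. Without LBC replicate 1, 4 members were called higher and 4 lower, because Grk5, Rgs4 and Rgs17 dropped below 1.5-fold and Adcy8 passed it. Without LBC replicate 3, the array that stood apart in brightness, 7 were higher and 2 were lower, Pde4b being the one lost. Adcy3, Pde2a, Pde3b and Rgs16 were called in every setting that tested them, apart from a fold threshold of 2, at which Pde3b alone was called. Some passes on p alone were lost in at least 1 setting. The highest adjusted p over the settings, by limma or the methods' t-test, was 0.22 for Arrb1 and 0.17 for Gnai3. It reached 0.15 for Prkar2b, 0.12 for Adcy9, 0.054 for Arrb2 and Grk6, and 0.026 for Adcy8.

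**Figure D3:**
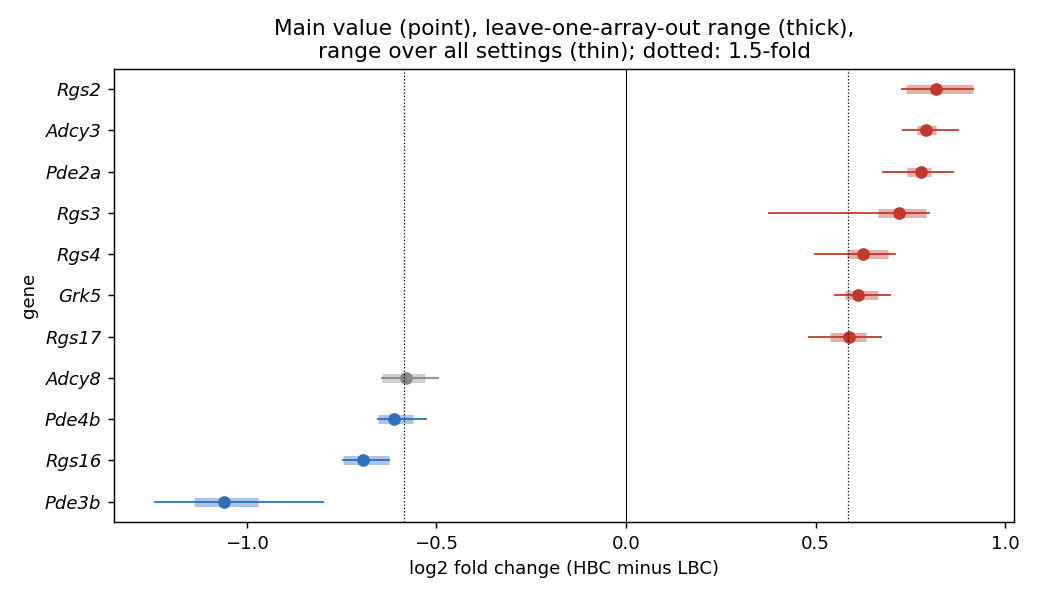
Log2 ratio (HBC minus LBC) of the 10 genes called and of Adcy8, with a point for the main value, a thick bar for the range when 1 array is left out and a thin line for the range over all settings tried except other fold thresholds. The thick bars of Grk5, Rgs4, Rgs17, Adcy8 and Pde4b reach across the dotted 1.5-fold lines.

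Receptors that feed this machinery were read from lists of known coupling. Of 38 Gs-coupled receptors measured, 3 were called higher in HBC (7.89%) and none lower, against 2.54% of all genes called higher and 1.13% called lower. Of these 3, Rxfp1 was picked by the study on these arrays. Rxfp1, a relaxin receptor, read 294, 340.1 and 308 in HBC, against 19.8, 21.96 and 17.4 in LBC (log2 ratio 3.21). Its LBC arrays were in the dim range, and the log2 ratio ran from 2.38 to 3.93 over the settings tried. Calcrl, which forms the receptors for CGRP and adrenomedullin with its partner proteins, read 1097, 1139.8 and 1006 in HBC, against 323, 362 and 344 in LBC, a ratio of means of 3.15 (log2 ratio 1.61, limma adjusted p = 2.3e-15). Ptgir, the prostacyclin receptor, read 324, 335 and 316 in HBC, against 179, 173 and 179 in LBC (log2 ratio 0.82, limma adjusted p = 5.3e-09). For all 3 genes every HBC array was higher, and each kept its call in all settings that tested it at the 1.5-fold threshold. The median of the list was -0.08, and 15 of the 38 were dim in both groups.

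Gpr116 (Adgrf5) is the adhesion receptor that the study took from these arrays. Among other experiments, the study tested it for FcsFNDC4 binding and then for G protein signalling in adipocytes. On the arrays, Gpr116 averaged 244 ± 4.72 in HBC and 23.5 ± 2.77 in LBC (SD, n = 3), a log2 ratio of 2.72. Its LBC mean was in the dim range too, and the log2 ratio ran from 2.00 to 3.33 over the settings tried. Of 32 Gi-coupled receptors measured, 1 was called higher (3.12%) and none lower, against 2.54% of all genes called higher and 1.13% called lower. S1pr1, a receptor for sphingosine-1-phosphate, read 1001, 1025 and 829 in HBC, against 535, 557 and 658 in LBC. All HBC arrays were higher (log2 ratio 0.69, limma adjusted p = 2.0e-06), while the methods' t-test gave an adjusted p of 0.067.

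Downstream, none of the 12 CREB-family genes and coactivators, 21 PKA anchoring proteins, 3 PKA inhibitors, 13 other cAMP effectors or 16 G protein modulators measured was called. Of all genes, 3.67% were called. In the order of these lists, 3 of 12, 3 of 21, 0 of 3, 3 of 13 and 2 of 16 genes passed on p alone. Among all genes, 18.3% passed on p. Those with higher values in HBC were Creb3 (log2 ratio 0.38), the cAMP-binding membrane protein Bves (0.31), the modulator Gpsm3 (0.31) and the channel subunit Cngb3 (0.29). Those with lower values were Crem, Creb5 (-0.26), the PKA anchors Wasf1 (-0.45), Akap14 (-0.37) and Akap7 (-0.29), the channel subunit Cngb1 (-0.27) and the modulator Rap1gap (-0.28). Npy1r, a receptor of the Gi-coupled list, also passed on p (-0.27). Cngb3, Akap14 and Npy1r were in the dim range in both groups, so the size of their differences is uncertain. The CREB-family gene Crem, which encodes repressors that cAMP induces, read 107, 95.6 and 106 in HBC, against 133, 139 and 152 in LBC (log2 ratio -0.40, limma adjusted p = 0.00087), passing on p but not on fold.

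Of 25 genes known to respond to cAMP, 2 were called higher in HBC and 2 lower, 1 of each being a member described above (Rgs2 and Pde4b). Each direction made 8.0% of the list, against 2.54% of all genes called higher and 1.13% called lower. Per2, a clock gene, read 238, 270.5 and 246 in HBC, against 161, 151 and 152 in LBC (log2 ratio 0.65, limma adjusted p = 8.4e-07; 0.56 and not called with an added 50). Nr4a1, an immediate-early nuclear receptor, read 412, 423 and 365 in HBC, against 676, 712 and 819 in LBC (log2 ratio -0.85, limma adjusted p = 1.5e-08). The groups did not overlap for either. Another 6 passed on p but not on fold, Crem among them, all with lower values in HBC. Over all genes, 2049 passed on p alone with lower values in HBC and 874 with higher ones. Among them, Sik1, a kinase that restrains CREB coactivators, read 217, 229.7 and 211 in HBC, against 305, 328 and 375 in LBC (-0.58). It was called lower with an added 1 and without HBC replicate 2, LBC replicate 1 or LBC replicate 2, with -0.64 the lowest of these, without LBC replicate 1. Nr4a2 read 475, 464 and 479 in HBC, against 642, 632 and 773 in LBC (-0.51). In all, 10 of the 25 passed on p (40.0%), against 18.3% of all genes. The median of the list was -0.12, and Fos, Egr1 and Per1 were not called, at -0.13, -0.02 and -0.00.

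**Figure D4:**
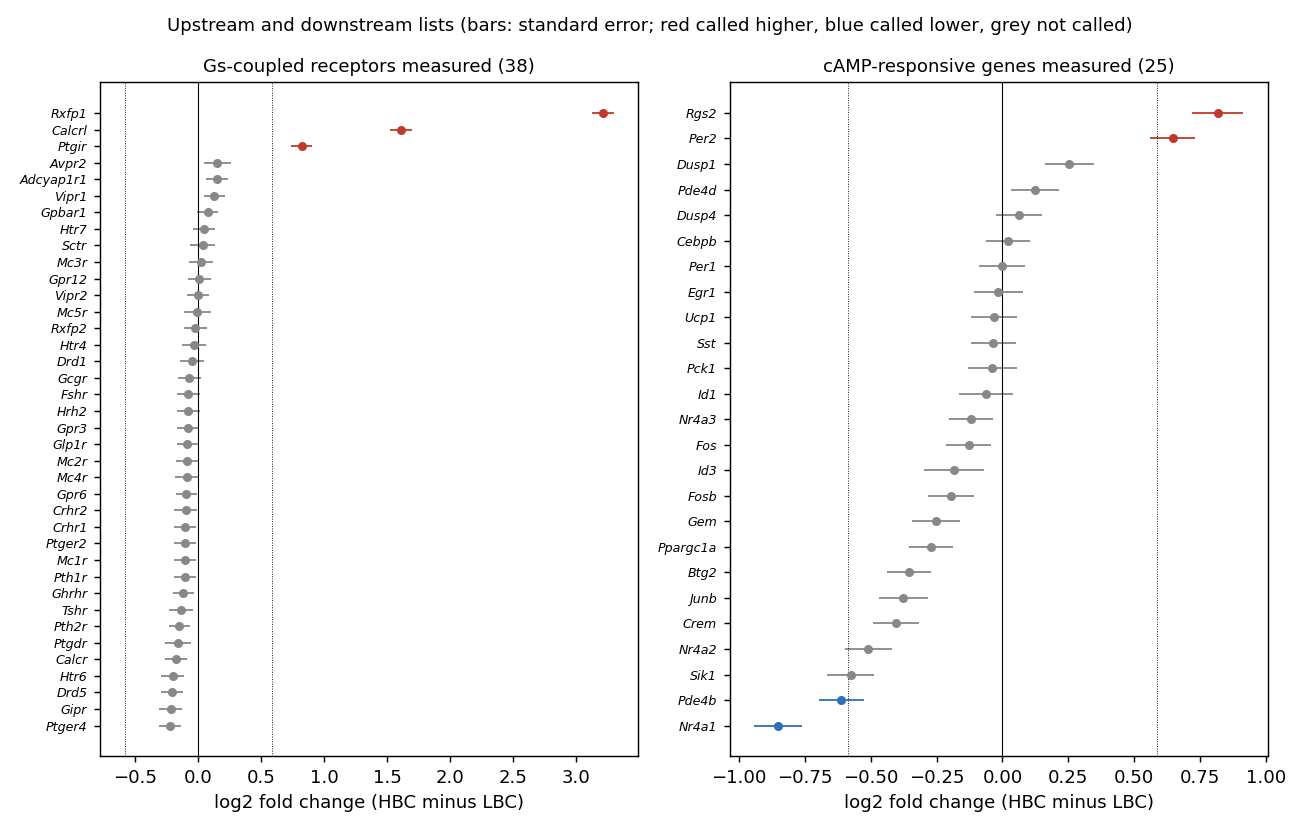
Log2 ratio (HBC minus LBC) of the 38 Gs-coupled receptors and 25 cAMP-responsive genes measured, bars marking limma standard errors (n = 3 arrays per group); red genes were called higher in HBC, blue ones lower and grey ones not called. Among the receptors Rxfp1, Calcrl and Ptgir stand above the rest, and among the responsive genes Rgs2 and Per2 lie at the top and Pde4b and Nr4a1 at the bottom.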

How the data were processed

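HBC and LBC were compared on 6 Affymetrix mouse gene arrays, 3 technical replicates each. The authors deposited linear-scale intensities, produced in Affymetrix Expression Console according to the labels. Which version, probe summary and between-array normalization were used is not given in the sources used here. Row identifiers corresponded to an earlier mouse gene array than the 2.0 version the methods name. Of 35556 transcript clusters, 21789 carried 1 gene symbol, 1621 several and 12146 none; those with several or none were left out of the fit. For a gene with several clusters (3 members), the one of the highest mean intensity over the 6 arrays was used. All 99 members matched a RefSeq gene by identifier, with the same symbol.

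The fit used limma 3.58.1 (R 4.3.3; functions lmFit, eBayes) on log2(intensity + 16), with group as the one term and Benjamini-Hochberg adjustment over 19938 genes. The added 16 makes changes of dim genes smaller. The fit was tested on simulated data, with changes put only into genes averaging above 100 and noise independent between arrays. Genes changed by at least 2-fold were recovered, and only part of those changed by 1.5-fold, the call threshold, were called. Recovery of changes in dim genes was not tested. Named genes are all members called, in each role the one of the highest mean and the one of the largest change, all cyclases, Gnas, PKA subunits and beta arrestins, members whose call changed when 1 array was left out, and the genes called in each pathway list with Rxfp1 and Gpr116; further genes that passed on p alone were named after their values were seen. The members and gene lists were chosen with earlier results of these data known. Every deposited value column belonged to a sample. In the symbol rule, Adcy, Rgs and Gng had to end in a number and Pde to be followed by one, so that Gnb1l, Pde4dip and Pde12 are included and Rgs7bp is not. The number of arrays limits the precision. Alternatives covered scaling, the added constant, filters on intensity, the methods' t-test, the variance prior, the choice of cluster, a replicate block, fold thresholds and leaving out each array. One further list of effector genes is not reported here.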

Additional observations from a re-analysis of the deposited data

How the results depend on the processing

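The 7 members called higher and 3 called lower kept counts within 1.5 times in most settings. The exceptions were 4 higher with an added 50 or without LBC replicate 1, 0 higher and 1 lower at a fold above 2, and 13 lower without a fold threshold. Leaving out 1 array gave 4 to 7 higher, the 4 being without LBC replicate 1. The 732 genes called overall became 3655 without a fold threshold and 280 at a fold above 2. Cyclic loess moved the split over all genes to 593 higher and 162 lower, against 507 and 225 as deposited. The replicate block left 7 higher, 3 lower and 732 overall and changed no call; replicate numbers did not pair the arrays, since deviations of same-numbered arrays correlated at -0.10 to -0.50. Leaving aside Gnb1l, Pde4dip and Pde12 changed neither count. The median log2 ratio of all genes was -0.02 after quantile normalization, 0.00 after cyclic loess and -0.03 after median centring. Some uncalled values near 0 turned: Adcy2 to 0.012 after quantile normalization, 0.055 after cyclic loess and 0.014 after median centring, Gng12 to -0.0012 and Prkar1a to -0.0087 after quantile normalization, and Prkar1b to 0.026 after cyclic loess. With 1 array left out, Adcy10 ran from -0.14 to 0.017, Adcy2 from -0.058 to 0.014, Gnb1 from -0.10 to 0.025, Gng12 from -0.040 to 0.11, Prkar1a from -0.044 to 0.067, Prkar1b from -0.12 to 0.026 and Prkar2a from -0.15 to 0.0011. No called member turned. The cause of these shifts was not tested. Dim signal limits Pde3b in HBC.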
